A study of Mus musculus with 6 samples.

Results

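The 9 genes described here encode structural proteins of the myelin sheath. They were taken from the deposited expression table by their symbols, *Mbp*, *Mag*, *Mog*, *Mobp*, *Cnp*, *Mal*, *Cldn11*, *Opalin* and *Ermn*, and are 9 of the 55492 genes listed there. All 9 were among the 15245 genes with a mean of at least 0.5 TPM (a transcript level per length that sums to the same total in every sample) over the 6 samples. Their rows were taken by symbol alone, but the list of symbols was chosen with earlier results of these data known. The samples were cells bound by microbeads against O4, a sulfated lipid antigen of late progenitors and oligodendrocytes, from whole brains of untreated mice at P16. There were 3 WT and 3 Npc1-/- mice, with 1 mouse per library of poly(A) RNA. The mutants carried the Npc1nih allele on both chromosomes and were F1 hybrids of BALB/cJ and C57BL6/J parents, each Npc1+/-; the study genotyped littermates. The allele is germline, so NPC1, which exports cholesterol from late endosomes and lysosomes, was affected in neurons and all other cells of these brains as well as from the O4+ cells.

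Myelin is a spiral of oligodendrocyte membrane around an axon, compacted in most of its length and rich in cholesterol and galactolipids. MBP and MOBP are basic proteins that lie between the cytoplasmic faces of compact myelin. MAG sits in the membrane next to the axon, and MOG on the outermost lamella. Claudin 11, encoded by *Cldn11*, forms the tight junctions between lamellae, and MAL is a raft-associated proteolipid of the sorting route to the sheath. CNP keeps cytoplasmic channels open, ermin is an actin-binding cytoskeletal protein, and opalin is an oligodendrocyte transmembrane glycoprotein. The mRNAs of these genes accumulate as progenitors mature, with *Cnp* detectable early.

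In the O4+ cells of Npc1-/- mice, 8 of the 9 mRNAs had a higher mean than in WT after the libraries had been scaled by size factors, and *Cnp* did not. *Mag* (1137 ± 54.3 scaled TPM in WT and 1522 ± 141 in Npc1-/-, SD, n = 3) and *Cldn11* (892 ± 25.0 and 1097 ± 40.4) were the members in which every mutant lay above every WT mouse. None of the 9 passed the test over all genes, and the direction of several of them turned with the way the samples were scaled. *Mbp* mRNA made up between 18.8% and 26.1% of all TPM in a library, more than any other gene. In bulk RNA of this kind, fewer cells of a type and less RNA per cell cannot be told apart.

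*Npc1* itself was at 53.3, 50.4 and 45.5 TPM in WT and at 4.10, 4.42 and 3.16 TPM in Npc1-/- mice, in the direction of the labels. Depth, as the spacing of small FPKM values gives it, was 40500000 to 50500000 fragments per library. *Xist* was at 15.57 TPM in Npc1-/- replicate 3 and at most 0.01 TPM in the others, and *Ddx3y*, on the Y chromosome, was at 0 in that library alone, so 1 mutant differed in sex from the other 5 mice. The lineage factors *Olig1*, *Olig2* and *Sox10* were present in all 6 libraries, with a summed level of 767 to 938 scaled TPM in WT and 809 to 908 in Npc1-/-. *Gpr17*, a marker of committed oligodendrocytes, was at 250 scaled TPM or above in every library.

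Levels between samples are given as scaled TPM, which is TPM divided by a size factor per library (the median of ratios over 18690 genes). For WT these factors came to 1.30, 1.11 and 1.04, and for the mutants to 1.10, 0.855 and 0.727, so that the scaling raised the mutants relative to WT. Differences were tested with limma on log2(scaled TPM + 0.5) over all 15245 genes, and a gene was called at an adjusted p under 0.05 with a log2 fold change beyond 0.1 in either direction. In that test 124 genes (0.813%) were called, 61 higher (0.4%) and 63 lower (0.413%) in Npc1-/-, a number that ranged from 5 to 488 when 1 library was left out. Beside it stands the exact permutation test over the 6 samples, two-sided over 20 arrangements, whose smallest possible p with 3 against 3 mice is 0.1.

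The basic proteins were the most abundant members. *Mbp* (ENSMUSG00000041607, chr18:82475146-82585637 on GRCm38, plus strand, 16 transcripts of 354 to 4797 bases) ranked 1 among all genes by mean TPM. Its level was 145087, 200316 and 201807 scaled TPM in WT and 183641, 289011 and 359525 in Npc1-/- mice. Mutant replicates 2 and 3 were the highest of the 6, while mutant replicate 1 lay within the WT range. The log2 fold change of *Mbp* was 0.57 with a standard error of 0.89 and a 95% confidence interval of -1.52 to 2.65 (limma adjusted p = 0.765, exact permutation p = 0.3). The width of this interval came from the prior that limma reads from a trend over abundance, an SD of 1.57 against a residual SD of 0.399 for *Mbp* itself. *Mbp* lies at the upper end of that trend, where few genes support it. The prior SD was 25.4 without a filter and 0.744 with a mean TPM of at least 5. With a single prior for all genes the standard error was 0.27 and the limma adjusted p 0.282.

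*Mobp* (ENSMUSG00000032517, chr9:120149707-120181484, plus strand) ranked 3 among all genes. Its level was 17730.9, 26621.2 and 29576.6 scaled TPM in WT and 22537.4, 40984.2 and 56490.5 in Npc1-/- mice. As with *Mbp*, replicate 1 was the lowest of its genotype in both groups, and the groups overlapped. For *Mobp* the log2 fold change was 0.63 ± 0.49 (SE; 95% interval -0.52 to 1.79, limma adjusted p = 0.505, exact permutation p = 0.3), and it was 0.34 without Npc1-/- replicate 3 and 1.00 without Npc1-/- replicate 1. The ratio of *Mbp* to *Mobp* was 8.18, 7.52 and 6.82 in WT and 8.15, 7.05 and 6.36 in Npc1-/- mice, ranges that overlap.

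Of the immunoglobulin-superfamily members, *Mag* (ENSMUSG00000036634, chr7:30899176-30914873, minus strand) was the more abundant. Its level was 1186.7, 1146.4 and 1079.2 scaled TPM in WT and 1669.5, 1510.3 and 1387.5 in Npc1-/- mice. The lowest mutant stood above the highest WT mouse. *Mag* had a log2 fold change of 0.42 ± 0.13 (SE; 95% interval 0.10 to 0.73). Its unadjusted limma p was 0.0163, which became 0.130 after adjustment over all genes, and the exact permutation p was 0.1. It ranged from 0.35 to 0.48 with 1 library left out.

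*Mog* (ENSMUSG00000076439, chr17:37010743-37023398, minus strand) was at 310.3, 341.3 and 384.2 scaled TPM in WT and at 452.1, 528.8 and 365.0 in Npc1-/- mice. Npc1-/- replicate 3, which was the highest sample for the basic proteins, fell inside the WT range for *Mog*. The log2 fold change was 0.37 ± 0.16 (SE; 95% interval -0.01 to 0.74, limma adjusted p = 0.234, exact permutation p = 0.2). Without that replicate the log2 fold change of *Mog* was 0.51 (limma adjusted p = 0.111), and without Npc1-/- replicate 2 it was 0.24 (limma adjusted p = 0.547).

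Among the tetraspan proteins of the sheath, *Cldn11* (ENSMUSG00000037625, chr3:31149920-31164324, plus strand) varied least between the WT mice. It stood at 864.1, 912.8 and 898.4 scaled TPM in WT and at 1076.6, 1143.3 and 1070.5 in Npc1-/- mice, with a coefficient of variation of 2.80% in WT, the lowest of the 9 genes. The groups did not overlap. *Cldn11* had a log2 fold change of 0.30 ± 0.11 (SE; 95% interval 0.03 to 0.56). Its unadjusted limma p was 0.0317, the adjusted p 0.179 and the exact permutation p 0.1. With 1 library left out it ranged from 0.27 to 0.32. *Mal* (ENSMUSG00000027375, chr2:127633226-127656695, minus strand) was at 653.9, 844.7 and 951.1 scaled TPM in WT and at 768.9, 1080.9 and 1097.8 in Npc1-/- mice. Mutant replicate 1 lay below WT replicates 2 and 3. For *Mal* the log2 fold change was 0.27 ± 0.20 (SE; 95% interval -0.21 to 0.74, limma adjusted p = 0.498, exact permutation p = 0.3).

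*Cnp* (ENSMUSG00000006782, chr11:100574904-100591729, plus strand), the enzyme of the cytoplasmic channels, was the member whose mean was not higher in the mutants. Its level was 2329.5, 2885.7 and 2662.2 scaled TPM in WT and 2629.2, 2583.4 and 2482.3 in Npc1-/- mice. All 3 mutants lay inside the WT range. The log2 fold change was -0.03 ± 0.16 (SE; 95% interval -0.40 to 0.35, limma adjusted p = 0.940, exact permutation p = 0.8), and without WT replicate 2 it was 0.04. *Cnp* overlaps *Dnajc7* (mean 128 TPM) on the opposite strand, and the sources used here do not say whether fragments were counted by strand.

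*Ermn* (ENSMUSG00000026830, chr2:58045113-58052864, minus strand), the cytoskeletal member, was at 102.3, 137.0 and 162.8 scaled TPM in WT and at 146.6, 183.7 and 228.4 in Npc1-/- mice. The mutant values reached higher, but replicate 1 of the mutants lay below replicate 3 of the WT mice. For *Ermn* the log2 fold change was 0.48 ± 0.21 (SE; 95% interval -0.03 to 0.98, limma adjusted p = 0.248, exact permutation p = 0.2). *Opalin* (ENSMUSG00000050121, chr19:41061710-41077113, minus strand) was the least abundant member, at 35.0, 36.3 and 45.2 scaled TPM in WT and 38.5, 44.5 and 46.2 in Npc1-/- mice. These ranges overlapped almost entirely, with a log2 fold change of 0.15 ± 0.13 (SE; 95% interval -0.14 to 0.45, limma adjusted p = 0.532, exact permutation p = 0.3).

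**Figure D1:**
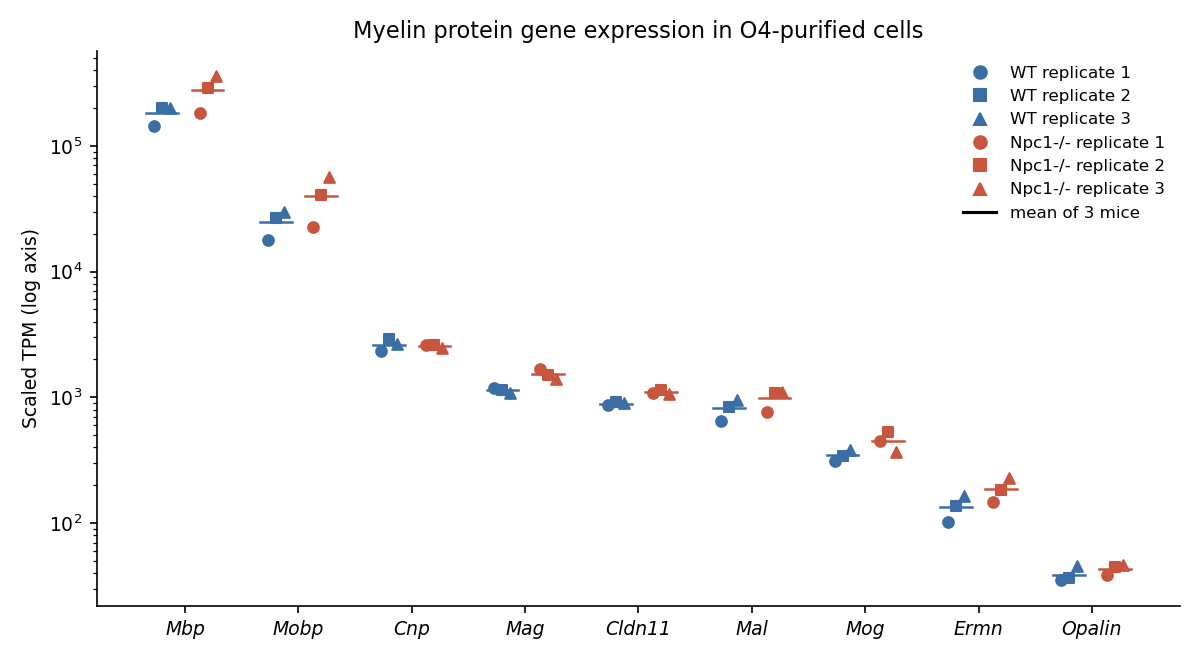
Level of each of the 9 genes in scaled TPM (log axis) in the 3 WT (blue) and 3 Npc1-/- (red) libraries, with the symbol marking the replicate number and the line the mean of 3 mice. *Mbp* spans 145087 to 359525 and *Opalin* 35.0 to 46.2 scaled TPM, and the red points lie wholly above the blue ones for *Mag* and *Cldn11*, a separation that depends on the scaling by size factors.

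The sequences upstream of the starts of 8 members were read from RefSeq on GRCm38.p6, from 250 to 51 bases before the start, and none is given for *Mbp*. They are shown for the 2 genes whose groups separated, for *Cnp*, which did not move with them, and for *Mobp*, which has the most matches. Capitals mark matches, on either strand, to ACAAAG (the core that SOX factors bind, also read as CTTTGT) or CTGGCAC (a core bound by MYRF, the regulator of myelin genes). The regions are *Mag* chr7:30914914-30915113 (minus strand), *Cldn11* chr3:31149670-31149869 (plus), *Cnp* chr11:100574689-100574888 (plus) and *Mobp* chr9:120149492-120149691 (plus), each 200 bases. For *Mag* RefSeq gives 3 starts, and the window of 1 of them is shown. No match overlaps another.
Mag: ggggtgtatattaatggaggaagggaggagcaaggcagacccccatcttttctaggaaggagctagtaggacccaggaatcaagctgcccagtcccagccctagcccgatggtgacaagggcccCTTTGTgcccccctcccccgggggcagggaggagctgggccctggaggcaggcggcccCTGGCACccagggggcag
Cldn11: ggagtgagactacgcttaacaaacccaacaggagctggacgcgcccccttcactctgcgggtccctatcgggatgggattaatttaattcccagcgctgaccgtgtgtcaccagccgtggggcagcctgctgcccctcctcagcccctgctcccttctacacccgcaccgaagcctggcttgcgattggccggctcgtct
Cnp: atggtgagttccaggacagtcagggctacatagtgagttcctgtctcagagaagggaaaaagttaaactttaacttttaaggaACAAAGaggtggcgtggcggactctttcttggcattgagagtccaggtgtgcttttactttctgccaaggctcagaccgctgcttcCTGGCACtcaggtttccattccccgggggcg
Mobp: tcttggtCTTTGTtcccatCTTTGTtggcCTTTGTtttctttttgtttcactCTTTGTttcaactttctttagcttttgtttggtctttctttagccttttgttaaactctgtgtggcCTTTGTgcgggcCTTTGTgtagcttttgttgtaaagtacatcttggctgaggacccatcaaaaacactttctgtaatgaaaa
ACAAAG was found in 5 of the 10 windows of the 8 members, those of *Mobp* (6 matches), *Cnp* and *Opalin* and 2 overlapping ones of *Mag*, and in 13.6% of 32851 windows of the same length over the genome. CTGGCAC was found in 2 of the 10, of *Mag* and *Cnp*, and in 3.35% of all windows. CAGCTG, an E-box that OLIG factors can bind, was in none of the 10 and in 10.3% of all windows. The window shown for *Mag*, whose groups separated, and that of *Cnp*, whose groups did not, thus hold the same pair of motifs. Of the *Mag* windows not shown, 1 holds ACAAAG alone and 1 holds neither motif. The window of *Cldn11* also holds neither.

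The order of the levels was the same in both genotypes: *Mbp*, *Mobp*, *Cnp*, *Mag*, *Cldn11*, *Mal*, *Mog*, *Ermn* and *Opalin*. *Cldn11* and *Mal* were the neighbours whose ranges overlapped, in WT (1.09-fold between the means) and in Npc1-/- mice (1.12-fold). All other neighbours were separated in every mouse of a genotype. The largest step in WT was from *Mobp* to *Cnp*, 9.38-fold between the means, and it was 15.6-fold in Npc1-/- mice. At the other end, the step from *Ermn* to *Opalin* was 3.45-fold in WT and 4.32-fold in the mutants. TPM rests on the lengths assigned to transcripts, and *Mobp*, with a median transcript of 569 bases, and *Ermn*, with 3635 bases, lie at the extremes of the 9 genes.

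Read together, 0 of the 9 genes were called, against 0.813% of all genes tested. At an unadjusted limma p under 0.05 there were 2 of 9, *Mag* and *Cldn11*, against 22.2% of all genes. The same 2 of 9 had groups that did not overlap, both with the mutants above, while 27.5% of all genes did not overlap and 13.3% had the mutants above. These shares of the members are near those of the background. The log2 fold change was above 0 in 8 of 9 members and in 51% of all genes, with a median of 0.37 for the members and 0.01 for all genes.

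That median was set beside genes of like abundance. The 59 other genes with a mean of at least 1000 TPM had a median log2 fold change of 0.53, with 89.8% of them above 0; 0 of 59 were called by limma, and 24 had an unadjusted p under 0.05. For the 784 other genes between 100 and 1000 TPM the median was 0.19 and 75.1% were above 0, and for the 5820 between 10 and 100 TPM it was 0.03. In the highest range *Mbp*, at 0.57, and *Mobp*, at 0.63, stood near that median, while *Mag*, at 0.42, *Cldn11*, at 0.30, and *Cnp*, at -0.03, stood below it. *Mal*, *Mog* and *Ermn*, at 0.27, 0.37 and 0.48, were above the median of the range from 100 to 1000 TPM, and *Opalin*, at 0.15, above that of its range. Transcript length moved with the differences over all genes too, from a median of 0.07 for genes whose median transcript is under 1000 bases to -0.12 for those of 4000 bases or more, and the part of either property in the members' values was not tested.

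**Figure D2:**
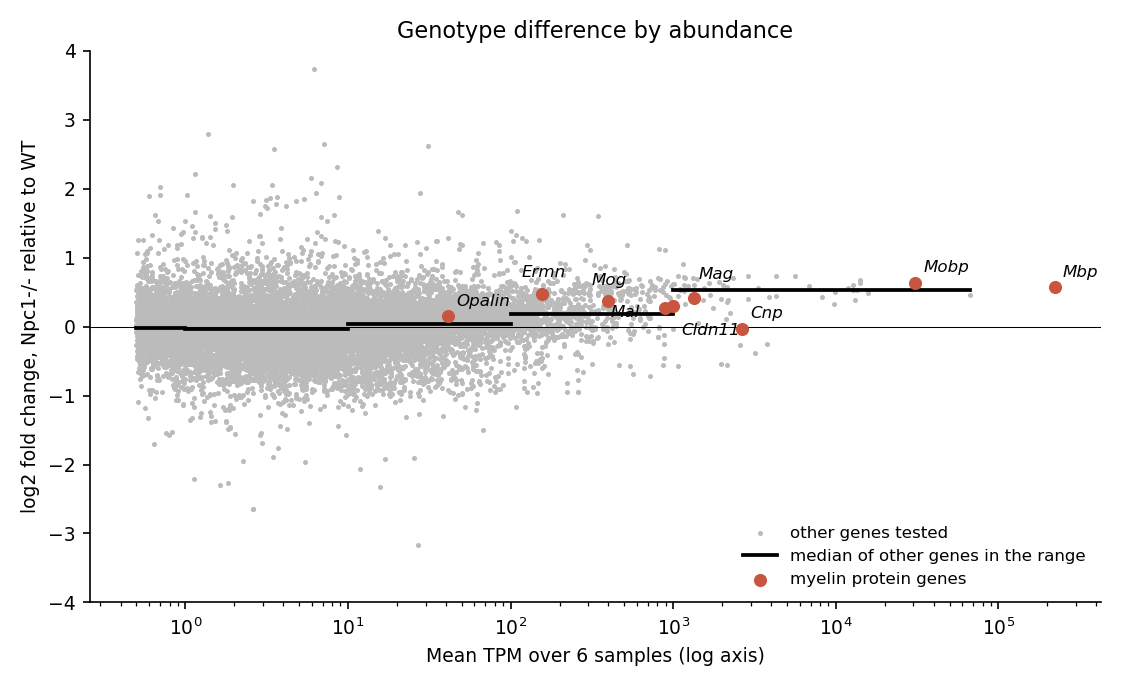
Log2 fold change of Npc1-/- relative to WT (from scaled TPM + 0.5) against mean TPM over the 6 samples (log axis) for the genes tested, with the 9 myelin protein genes in red and the median of the other genes in each range of abundance as a black line. The line lies at 0.53 above 1000 TPM and at 0.03 between 10 and 100 TPM; *Mbp* and *Mobp* sit close to it and *Cnp* lies below it.

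As shares of all TPM, which need no size factor, the 9 genes together took 21.8%, 25.8% and 24.7% of the WT libraries and 23.5%, 28.8% and 30.7% of the Npc1-/- libraries. The difference of the means was 3.57 percentage points (24.1 ± 2.06 and 27.7 ± 3.76, SD, n = 3), close to the spread between mice of a genotype (an SD of 3.03). It was 2.05 without Npc1-/- replicate 3 and 5.67 without Npc1-/- replicate 1. *Mbp* alone made up 18.8%, 22.2% and 21.0% in WT and 20.2%, 24.7% and 26.1% in Npc1-/- mice. *Mobp* made up 2.30%, 2.95% and 3.07% in WT and 2.48%, 3.50% and 4.10% in the mutants. For neither gene did the shares of the groups separate.

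The 7 other members took a small and differently ordered share, 0.710%, 0.698% and 0.642% in WT and 0.747%, 0.605% and 0.485% in Npc1-/- mice. Here Npc1-/- replicate 3 was the lowest library, whereas it was the highest for *Mbp* and *Mobp*. *Cnp* took 0.302%, 0.319% and 0.276% in WT and 0.290%, 0.221% and 0.180% in the mutants. *Mag* took 0.154%, 0.127% and 0.112% against 0.184%, 0.129% and 0.101%. *Cldn11* took 0.112%, 0.101% and 0.0933% against 0.119%, 0.0977% and 0.0778%. The separation of *Mag* and *Cldn11* seen in scaled TPM was thus absent from their shares. In *Mal* the shares ran from 0.0798% to 0.0988%, in *Mog* from 0.0265% to 0.0498%, in *Ermn* from 0.0132% to 0.0169% and in *Opalin* from 0.0034% to 0.0047%, with the genotypes overlapping in each. Shares of a fixed total are tied to each other, and mRNAs encoded by the mitochondrial genome took a further 20.6% to 23.2% in WT and 22.6% to 24.7% in Npc1-/- libraries.

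**Figure D3:**
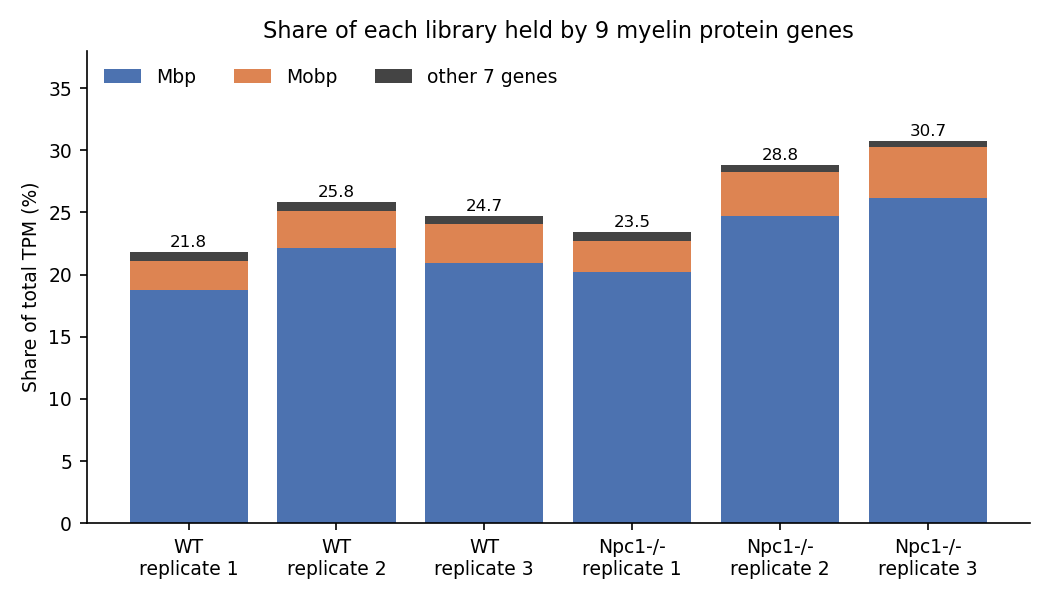
Share of total TPM (%) held by *Mbp*, *Mobp* and the other 7 myelin protein genes in each of the 6 libraries, stacked, with the sum of the 9 above each bar. *Mbp* fills most of every bar, the sum runs from 21.8% to 25.8% in WT and from 23.5% to 30.7% in Npc1-/-, and the genotypes overlap.

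Because the scaling moved all genes at once, each member was put under other scalings in the same fit. With TPM as deposited the median log2 fold change of all genes was -0.33, and with each library divided by its total without the 9 genes it was -0.26. With TPM as deposited *Mog* was at -0.01, *Mal* at -0.11, *Cldn11* at -0.08, *Opalin* at -0.22 and *Cnp* at -0.40, while *Mag* stayed at 0.04, *Ermn* at 0.10, *Mbp* at 0.19 and *Mobp* at 0.26. Relative to the median of all genes under that scaling, *Mog* was 0.32 higher, *Cldn11* 0.25, *Mal* 0.22 and *Opalin* 0.11. Quantile normalization, which gives every library the same set of values, set *Mbp* to 0 because it ranked 1 in every library. *Mobp* was also at 0, since it held rank 4 in replicate 1 and rank 3 in replicates 2 and 3 of both genotypes. The same normalization put *Mag* at -0.06, *Mal* at -0.12, *Cldn11* at -0.11 and *Cnp* at -0.09. With *Olig1*, *Olig2* and *Sox10* as the reference, every member kept its sign. In none of these scalings was a member called.

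**Figure D4:**
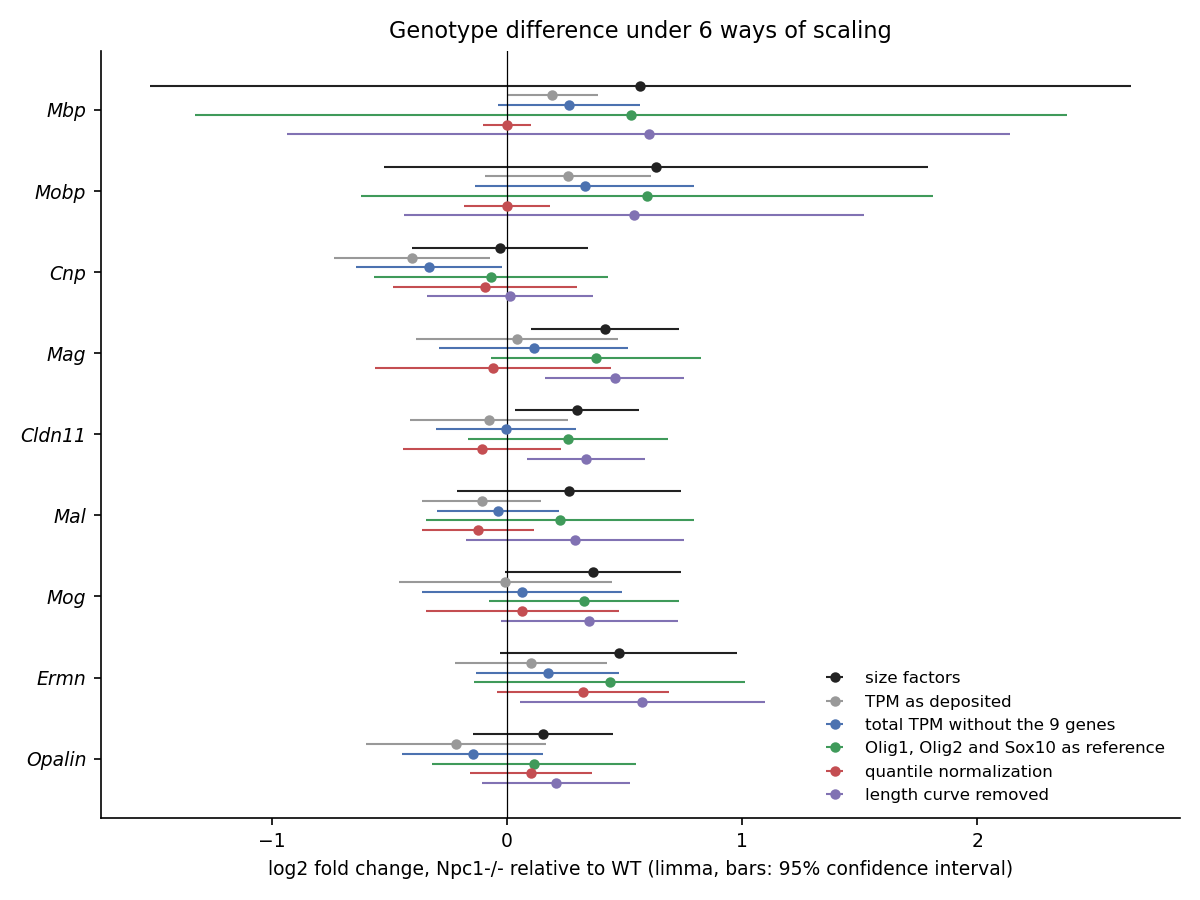
Log2 fold change of Npc1-/- relative to WT with its 95% confidence interval (limma) for each of the 9 genes under 6 scalings, one colour per scaling. Black points (size factors) lie above 0 for every gene but *Cnp*, grey points (TPM as deposited) lie below 0 for *Cnp*, *Cldn11*, *Mal*, *Mog* and *Opalin*, and red points (quantile normalization) lie below 0 for *Mag*, *Cldn11*, *Mal* and *Cnp*.

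Ratios within a library do not depend on a factor per library, although quantile normalization changes them too. Each member was therefore divided by *Cnp*, and the log2 ratio compared between genotypes in 8 exact permutation tests. The ratio of *Mag* to *Cnp* was -0.97, -1.33 and -1.30 on the log2 scale in WT and -0.66, -0.77 and -0.84 in Npc1-/- mice, a difference of 0.45 with all mutants above all WT mice. The ratio of *Cldn11* to *Cnp* was -1.43, -1.66 and -1.57 in WT and -1.29, -1.18 and -1.21 in the mutants, a difference of 0.33, again without overlap. The ratio of *Mog* to *Cnp* differed by 0.40 and separated the groups narrowly, at -2.91, -3.08 and -2.79 against -2.54, -2.29 and -2.76. Each of these ratios had the smallest p the exact permutation test can give, 0.1, and an adjusted p of 0.267 over the 8 ratios. In every mutant there was thus more *Mag*, *Cldn11* and *Mog* mRNA per *Cnp* mRNA than in any WT mouse, a description that no size factor can change and that did not pass the test.

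The remaining ratios to *Cnp* overlapped between the genotypes. *Mbp* to *Cnp* was 62.3, 69.4 and 75.8 on the linear scale in WT and 69.8, 112 and 145 in Npc1-/- mice, a log2 difference of 0.60 (exact permutation p = 0.2). *Mobp* differed by 0.66 and *Ermn* by 0.50 on the log2 scale (exact permutation p = 0.3 and 0.2). Without Npc1-/- replicate 3 the differences of *Mbp*, *Mobp* and *Ermn* were 0.36, 0.34 and 0.32, and without Npc1-/- replicate 1 they were 0.88, 1.05 and 0.68. *Mal* differed by 0.29 and *Opalin* by 0.18 (exact permutation p = 0.3 and 0.4), with ranges of 0.18 to 0.48 and 0.07 to 0.28 when 1 library was left out. All 8 differences were above 0, which follows from the choice of *Cnp* as the shared denominator. Each is the log2 fold change of the member less that of *Cnp*, the lowest of the 9 at -0.03. With *Mag* in place of *Cnp* as the reference, the differences of *Mog*, *Mal*, *Cldn11* and *Opalin* were below 0, at -0.05, -0.15, -0.12 and -0.26.

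**Figure D5:**
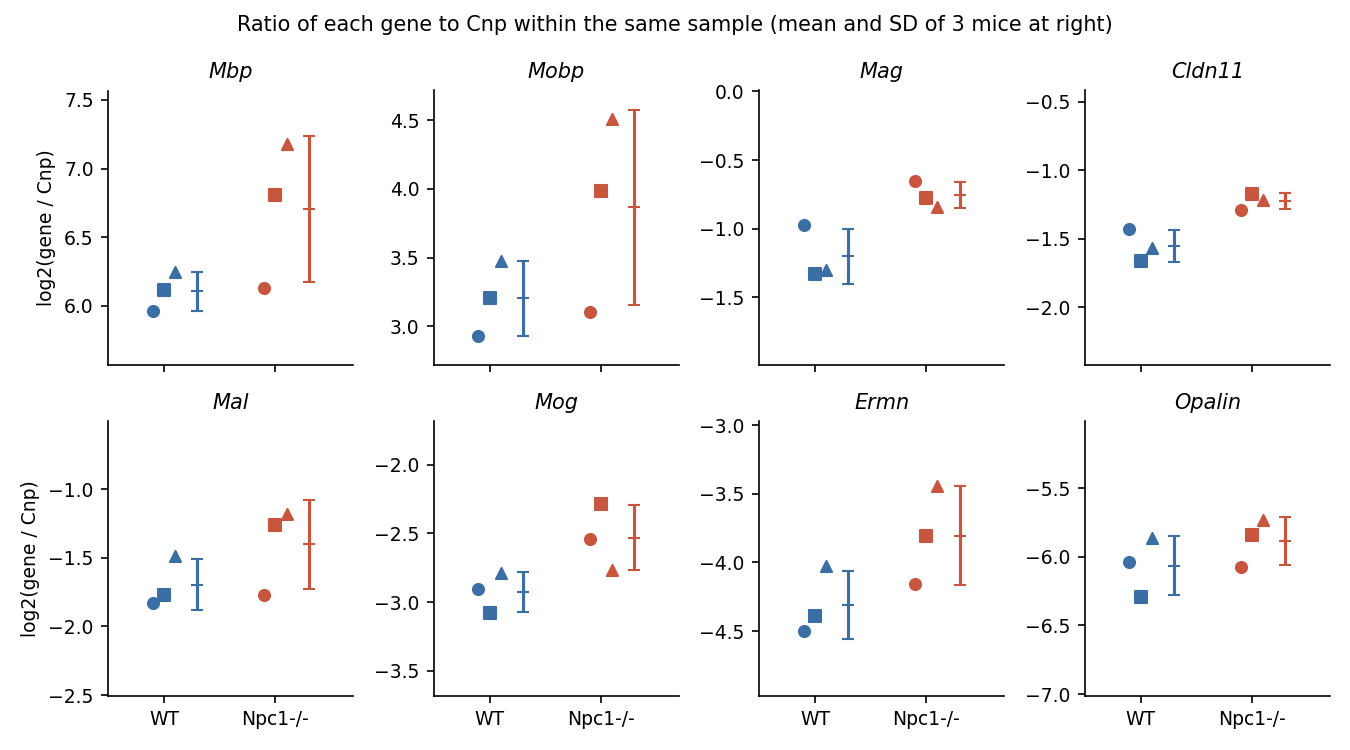
Log2 ratio of each gene to *Cnp* within the same library, in 3 WT (blue) and 3 Npc1-/- mice (red), with circles, squares and triangles for replicates 1, 2 and 3 and the mean with its SD at the right of each group; every panel spans the same number of log2 units. All mutants lie above all WT mice for *Mag*, *Cldn11* and *Mog*, with *Mag* at -0.97 to -1.33 in WT and -0.66 to -0.84 in Npc1-/-, and the genotypes overlap in the other 5 panels.

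How the members varied over the 6 libraries is given here as a description of log2 values that share libraries and their scaling. *Mbp*, *Mobp*, *Ermn*, *Mal* and *Opalin* varied together, with Pearson correlations of 0.81 to 0.99 and the highest between *Mbp* and *Mobp*. All 5 of them were lowest in replicate 1 in both genotypes. *Mag* and *Cldn11* (r = 0.88), *Mog* and *Cldn11* (r = 0.83) and *Mag* and *Mog* (r = 0.71) also varied together, and were not lowest in replicate 1 of the mutants. These sets were not sharply apart, since *Cldn11* correlated at 0.70 with both *Mbp* and *Ermn*. *Cnp* correlated with no other member above 0.24.

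The genes most like the mean profile of the 9 members among 6663 other genes with a mean of at least 10 TPM were *Rps27*, *Lcmt1*, *Atp5l*, *D8Ertd738e* and *Nrbp2*, with correlations of 0.998 to 0.996 over 6 samples. *Rps27*, a ribosomal protein gene, was at 334, 425 and 475 scaled TPM in WT and at 463, 607 and 661 in Npc1-/- mice. None of the 5 was called by limma, and 4 had an unadjusted p under 0.05, against 22.2% of all genes. The 5 were picked in these same libraries for their likeness to the members' profile, so their p values are not a separate result. As many as 823 of the 6663 genes (12.4%) had a correlation of at least 0.9, so that this profile was common in these libraries.

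Other genes of the sheath were compared from lists of membrane proteins, cytoplasmic and cytoskeletal proteins, lipid enzymes and regulators, 68 genes in all that were tested. Of these, 59 had a log2 fold change above 0, against 51% of all genes. That share was 56.3% in other genes of 10 to 100 TPM, 75.1% at 100 to 1000 TPM and 89.8% at 1000 TPM or more. In the 68 sheath genes 2 were called higher, both membrane proteins, and none was called lower, against the 0.813% called over all genes. *Gjb1*, which encodes the gap junction protein connexin 32, was at 55.3, 66.7 and 68.1 scaled TPM in WT and at 140, 168 and 145 in Npc1-/- mice, a log2 fold change of 1.25 ± 0.12 (SE, limma adjusted p = 0.0134). *Gpr37*, a receptor that regulates oligodendrocyte differentiation, was at 34.7, 33.4 and 37.3 in WT and 50.3, 51.4 and 48.5 in Npc1-/- mice, a log2 fold change of 0.51 ± 0.08 (SE, limma adjusted p = 0.0493). All mutants lay above all WT mice in both genes. With TPM as deposited *Gjb1* was still called, at 0.87 (limma adjusted p = 0.0200), and *Gpr37*, at 0.14, was not (limma adjusted p = 0.634). Leaving out WT replicate 2, WT replicate 3 or Npc1-/- replicate 2 ended the call of *Gjb1* (limma adjusted p = 0.0737, 0.0690 and 0.0854), and leaving out any library but Npc1-/- replicate 3 ended that of *Gpr37* (limma adjusted p from 0.0702 to 0.197).

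Of 24 membrane proteins, 21 had a log2 fold change above 0, with a median of 0.28, and 10 had an unadjusted p under 0.05 (22.2% of all genes). The mutants lay above in 12 and below in 0, against 13.3% above and 14.2% below over all genes. They were above in 16.2% of other genes of 10 to 100 TPM and in 34.4% of those of 100 to 1000 TPM. In the 16 genes of the sheath cytoplasm and cytoskeleton the median was 0.31, with 14 above 0 and 4 with the mutants above; none was called by limma and 3 had an unadjusted p under 0.05 (22.2% of all genes). *Gsn*, the actin-severing gelsolin, was at 586 to 625 scaled TPM in WT and 749 to 868 in Npc1-/- mice. *Sirt2*, a sheath deacetylase, was at 2764 ± 381 in WT and 2275 ± 122 in the mutants. The 15 lipid enzymes had a median of 0.30, with 14 above 0 and 10 with the mutants above. None was called by limma and 10 had an unadjusted p under 0.05, against 13.3% with the mutants above and 22.2% at that p over all genes. In the ranges where these enzymes lie, the mutants were above in 16.2% of other genes of 10 to 100 TPM and in 34.4% of those of 100 to 1000 TPM. Among the lipid enzymes *Ugt8a*, which makes galactocerebroside, was at 379 ± 22.7 scaled TPM in WT and 450 ± 11.2 in Npc1-/- mice, and *Hmgcs1*, of cholesterol synthesis, at 550 ± 34.9 and 659 ± 42.2. *Enpp2*, the most abundant of the 15, had a lower mean in the mutants, at 911 ± 153 in WT and 769 ± 164 in Npc1-/- mice. With TPM as deposited the medians of these lists were below 0, at -0.09 for the membrane proteins (11 of 24 above 0), -0.06 for the cytoplasmic ones (7 of 16) and -0.07 for the lipid enzymes (5 of 15), against -0.33 for all genes.

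Regulators of myelin genes stood closer to the median of all genes. Of the 13, 10 had a log2 fold change above 0, with a median of 0.05, none called by limma and 2 with an unadjusted p under 0.05. With TPM as deposited 1 was above 0 and the median was -0.32. *Olig1* was at 533 ± 55.6 scaled TPM in WT and 545 ± 16.4 in Npc1-/- mice, and *Sox10* at 174 ± 14.8 and 178 ± 23.1. The 7 markers of oligodendrocyte progenitors had 5 values above 0 and a median of 0.26, which was -0.10 with TPM as deposited. In that list none was called by limma, 2 had an unadjusted p under 0.05 and 1 had the mutants above (22.2% and 13.3% of all genes). The 8 markers of committed and immature oligodendrocytes had 1 value above 0 and a median of -0.14, which was -0.51 with TPM as deposited. The 8 markers of late mature oligodendrocytes had 7 above 0 and a median of 0.67, with the mutants above in 5. None was called by limma and 5 had an unadjusted p under 0.05, against the same 13.3% and 22.2% of all genes. Most of the 8 lie between 100 and 1000 TPM, where the mutants were above in 34.4% of other genes and 300 of 784 had an unadjusted p under 0.05. *Hapln2*, *Car2* and *Anln* of this list are also in the sheath lists above. This list kept its sign with TPM as deposited, at a median of 0.30 with 6 above 0. *Klk6*, a protease of mature oligodendrocytes named here after its values were seen, was at 35.8, 56.3 and 78.9 scaled TPM in WT and 130, 194 and 211 in Npc1-/- mice (log2 fold change 1.68 ± 0.30, SE, limma adjusted p = 0.0543). It was called with TPM as deposited (limma adjusted p = 0.0110), with the total without the members (0.0131), with quantile normalization (0.0480) and with a mean TPM of at least 5 (0.0418), and over all alternatives its adjusted p ran from 0.00893 to 0.202.

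Markers of other cells in the preparation were mostly lower in Npc1-/- mice for microglia, vessels and astrocytes, with 1 gene of these lists called (0.813% of all genes). The summed level of 6 microglial markers was 138 to 222 scaled TPM in WT and 61.2 to 113 in Npc1-/- mice. In 5 of the 6 every mutant lay below every WT mouse, as in 14.2% of all genes. *Tmem119* was called (log2 fold change -1.44 ± 0.22, SE, limma adjusted p = 0.0442). Leaving out any library but Npc1-/- replicate 3 ended that call (limma adjusted p from 0.0698 to 0.190). Endothelial markers summed to 812 to 918 in WT and 399 to 683 in the mutants, and mural cell markers to 328 to 487 and 198 to 250. The median log2 fold change was -1.08 for microglia, -0.83 for endothelium, -0.84 for mural cells, -0.58 for astrocytes and 0.19 for neurons (-0.14 with TPM as deposited, where the others kept their sign). *Gfap*, an astrocyte filament gene named after its values were seen, went against its list, at 88.9 ± 10.1 scaled TPM in WT and 190 ± 80.0 in Npc1-/- mice (log2 fold change 1.01, limma adjusted p = 0.108). No marker on these lists was at 0 in any library. The part of these cells in the members' levels was not tested.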

How the data were processed

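RNA of O4-microbead-purified cells was measured in 3 WT and 3 Npc1-/- mice, separate animals grouped by the labelled genotype. The authors deposited TPM and FPKM per gene for 55492 genes; within a library FPKM was TPM times 1 factor of 0.653 to 0.721. The paper's methods describe trimming with bbduk, alignment to GRCm38 with STAR and gene assignment with featureCounts, whereas the submitters' processing notes name cutadapt 2.3, STAR 2.7.8a and RSEM 1.3.3; which of these made the deposited TPM and FPKM, and whether strand was used, is not given in the sources used here. Reads were 151 bases, paired-end.

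TPM was divided by median-of-ratios size factors (18690 genes above 0 in every library), and log2(value + 0.5) entered limma 3.58.1 under R 4.3.3 (eBayes with trend, genotype the only term) over the 15245 genes with a mean of at least 0.5 TPM. Fold changes are on this log2 scale, which understates those of low genes. Genes were called at a Benjamini-Hochberg adjusted p under 0.05 with a log2 fold change beyond 0.1 either way; tests are two-sided. TPM is not a count, so no count model was used. Depth was fitted to the steps of low FPKM values in genes with 1 transcript of 350 to 1500 bases, on a grid of 250000 fragments; 79.9% to 82.5% of these values came within 0.15 of a whole fragment, against 30% by chance. At the depths found, 1 fragment was worth 0.0198 to 0.0247 FPKM at 1000 bases, far below every member, so errors are spreads between mice. The fits were tested on simulated data.

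Positions came from GENCODE M21 (GRCm38; 55227 identifiers matched) and upstream sequences from RefSeq (GRCm38.p6; 8 of 9 members matched). The members and lists were chosen with earlier results of these data known. Named beside the members were *Npc1*, the genes called in each list and otherwise up to 4 with the highest mean TPM, and the 5 genes most like the members' mean profile; *Gpr17*, *Klk6*, *Gfap*, *Xist*, *Ddx3y* and *Dnajc7* were named after their values were seen. Some genes that the rule names are not reported here. Septin genes were matched through RefSeq synonyms. Alternatives were other scalings (TPM as deposited, quantile normalization, the total without the members, lineage genes as reference), FPKM, pseudocounts of 0.1 and 1, other filters, other variance models, the replicate number as a block, a curve on transcript length, and each library left out. Tables and plots were made in Python 3.11.15 (matplotlib 3.10.9, scipy 1.17.1, pandas 2.3.3, numpy 2.4.6).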

Additional observations from a re-analysis of the deposited data

How the results depend on the processing

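No member was called under any scaling, pseudocount, filter or variance model tried, or with any library left out; the exception was the fit with the replicate block. The number of genes called over all genes was 124 (61 higher) with the design as reported. It was 924 (54 higher) with TPM as deposited, 981 (75 higher) with the total TPM without the 9 members, 243 with quantile normalization, 13 (9 higher) with *Olig1*, *Olig2* and *Sox10* as reference, 21 without a filter, 447 with a mean TPM of at least 5 and 42 without the trend. Leaving out 1 library gave 5 to 488 genes: 20, 13 and 8 without WT replicates 1, 2 and 3, and 19, 5 and 488 without Npc1-/- replicates 1, 2 and 3. Over all alternatives the limma adjusted p of *Gjb1* ranged from 0.00893 to 0.0854, that of *Gpr37* from 0.0225 to 0.634 and that of *Tmem119* from 0.0100 to 0.190. The fits without a library have fewer samples, and further causes were not tested.

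With TPM as deposited *Mog* was at -0.0065, *Mal* at -0.11, *Cldn11* at -0.075 and *Opalin* at -0.22. With the total TPM without the members *Mal* was at -0.038, *Cldn11* at -0.0048 and *Opalin* at -0.15. With quantile normalization *Mag* was at -0.059, *Mal* at -0.12 and *Cldn11* at -0.11. *Cnp* was at 0.014 after removal of a curve on transcript length and at 0.042 without WT replicate 2, and ranged from -0.11 to 0.042 with 1 library left out. The ratios of *Mog*, *Mal*, *Cldn11* and *Opalin* with *Mag* as the reference differed by -0.051, -0.15, -0.12 and -0.26. Without *Mbp* the summed share differed by 0.522 percentage points. With 1 library left out *Mbp* ranged from 0.35 to 0.84, *Mobp* from 0.34 to 1.00 and the other members but *Cnp* from 0.08 to 0.64, with no change of sign. Of 280 values recomputed, 244 kept their direction and their side of the threshold or stayed within the spread, 16 reversed, 16 moved and 4 became stronger. Other filters, other variance models and the replicate block leave a log2 fold change as it is, so many of the 244 could not reverse. *Mbp* and *Mobp*, which quantile normalization set to 0, were counted among the 244.

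The labels number the mice 1, 2 and 3 in both genotypes but do not say that a number is shared. Deviations of same-numbered samples correlated at 0.414, 0.0602 and 0.326 over 15245 genes; each sample correlated best with its own number, a hint from the data and not from the design, and the pair numbered 2 was too weak to take the numbers as pairs. Under a block for the replicate number, 2011 genes (13.2%) were called, 1143 of them higher. Of the members 4 were then called: *Mag* at 0.42, *Mobp* at 0.63, *Cldn11* at 0.30 and *Ermn* at 0.48 (limma adjusted p = 0.0238, 0.0425, 0.0379 and 0.0175).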
